A study of Homo sapiens with 22 samples.

Results

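The genes described here are 7 members of lipoprotein metabolism, the apolipoproteins APOE, APOC1, APOD and CLU and the lipoprotein receptors LRP1, VLDLR and LRP8. They were found by symbol among the 33538 genes of an untreated WM989 experiment and among the 36601 genes of an untreated WM983B experiment and of a WM989 treatment experiment, and all 7 were present in each table. WM989 A6-G3 and WM983B E9-D5 are BRAF-mutant human melanoma cell lines, each a clone grown out after repeated isolation of a single cell, so every comparison below is within the descendants of 1 cell per line. The study asked how cells pass between a drug-susceptible state and a rare primed state, in which a cell is more likely to become resistant to targeted therapy. Every cell carries the label of either state, which the authors assigned from its transcriptome.

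The untreated WM989 cells were sorted for high EGFR and NGFR or as mixed cells and then grown through 4 to 5 doublings. They were loaded in 8 wells, with 4 wells in each of the replicates r1 and r2. The methods split each culture across 2 wells, and which well took which sort is not in the labels. WM983B was 1 untreated library. In the treatment experiment WM989 cells were cultured for 5 days as Control with nothing added, with TGFB1 protein at 5 ng/mL, with the TGFB receptor inhibitor LY2109761 at 4 µM (TGFBRi) or with the PI3K inhibitor GDC-0941 at 2 µM (PI3Ki), with 2 libraries each. In each treatment the sample labels are Mix and Primed but the cell labels are r1 and r2, with no key between them, so that the starting population and the replicate cannot be told apart. Open chromatin was measured by ATAC-seq in 4 sorts of untreated WM989 cells with 3 libraries each, EGFR_High, NGFR-High, EGFR-NGFR-High and Mix. The study's methods list a sort negative for both markers where the labels have Mix; that these are the same cells is an inference, and Mix may also be read as unselected cells.

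Apolipoproteins are secreted proteins that carry lipid between and within tissues, and cells take up the particles through receptors of the LDL receptor family. APOE is the main ligand of this family. APOC1 is a small apolipoprotein from the same gene cluster that hinders APOE-mediated uptake, APOD is a lipocalin that binds small hydrophobic molecules, and CLU (apolipoprotein J) is a secreted chaperone. LRP1 is a large endocytic and signalling receptor with many ligands, while VLDLR and LRP8 bind APOE and reelin. Cells of the melanocyte lineage are known to express APOE and APOD.

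On hg38 the genes APOE (chromosome 19, 44905791 to 44909393, plus strand) and APOC1 (chromosome 19, 44914247 to 44919349, plus strand) are neighbours. APOD lies on chromosome 3 (195568705 to 195584033, minus strand), CLU on chromosome 8 (27596917 to 27614700, minus strand), LRP1 on chromosome 12 (57128483 to 57213361, plus strand), VLDLR on chromosome 9 (2621182 to 2660056, plus strand) and LRP8 on chromosome 1 (53242364 to 53328469, minus strand).

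The 8 WM989 wells held 408 to 3841 cells and 35882876 to 177318308 UMIs (unique molecular identifiers, each counted as 1 captured transcript). The WM983B library held 1449 cells with 102738398 UMIs, and the 8 treatment libraries held 3692 to 6273 cells with 70239657 to 122420544 UMIs. Levels are given as CPM, the UMIs of a gene in every 1000000 UMIs of the cells named. The reads come from the 3′ end of transcripts, so levels are compared between cells and never between genes. In a CPM pooled over cells, fewer expressing cells and less RNA per cell cannot be told apart. In the order in which wells are listed below, the primed share was 56.9%, 62.4%, 7.87% and 6.85% of cells in the r1 wells and 79.7%, 76.9%, 9.17% and 9.42% in the r2 wells. These shares were measured after growth, so they are not the purity of a sort. That the first and second wells of each replicate took the sort for EGFR and NGFR is an inference from them. The median mitochondrial share of UMIs was 14.1% in drug-susceptible and 7.95% in primed cells. The melanocytic markers (SOX10, MITF, PMEL, MLANA, TYR, DCT and TYRP1) were all detected in both states of WM989, with a summed level of 4882 CPM in drug-susceptible and 204 CPM in primed cells. Of the macrophage markers, most of the 45.8 CPM in drug-susceptible and 95.6 CPM in primed cells was CD68, and CD163 had 0 UMIs in drug-susceptible cells and 1 in primed cells. The 5 fibroblast markers summed to 36.0 CPM in drug-susceptible and 231 CPM in primed cells, of which COL1A1 made up 1.69 and 160 CPM; the part of these lists in the results was not tested. Of the cell barcodes, 19 occurred in more than 1 WM989 well and 194 in more than 1 treatment library (0.303% and 0.969% of cells). APOC1 has a pseudogene copy in the same cluster, and how reads shared with it were counted is not given in the sources used here.

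The sequences that follow are from 4 of the 5 open regions near members whose ATAC-seq signal differed between sorts. They are those whose values are given by library at the end, for LRP8 without EGFR_High. The first is the APOE promoter, the 245 bases before the transcription start at chr19:44905546-44905790, from RefSeq on GRCh38.p14. It was 1 of 5 member promoters matched in the RefSeq table and holds 2 GC boxes (GGGCGG or its complement, in capitals), a motif in 42.3% of 27305 promoters of 250 bases.
APOE promoter, plus strand: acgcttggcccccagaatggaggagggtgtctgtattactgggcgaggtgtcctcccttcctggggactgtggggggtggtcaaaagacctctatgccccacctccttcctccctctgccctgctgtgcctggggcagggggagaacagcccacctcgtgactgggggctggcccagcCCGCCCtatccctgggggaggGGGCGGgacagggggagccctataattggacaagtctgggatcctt
The other windows are 201 bases of GRCh38 around the mean summit of an open region, all written on the plus strand. They were searched on both strands for AP-1 (TGANTCA), E-box (CANNTG), extended E-box (TCANNTGA, which contains an E-box), SOX (ACAAAG), TEAD (GGAATG), GC box (GGGCGG) and TATA box (TATAAA) letters, with matches in capitals. The region upstream of LRP1, at chr12:57118887-57119087, lies in an intron of STAT6 and holds 2 E-boxes.
LRP1 upstream: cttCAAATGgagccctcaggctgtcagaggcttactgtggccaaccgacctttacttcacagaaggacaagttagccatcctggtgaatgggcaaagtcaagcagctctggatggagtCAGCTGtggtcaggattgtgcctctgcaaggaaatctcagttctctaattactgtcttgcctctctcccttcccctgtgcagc
The window at chr3:195566903-195567103 lies past the 3′ end of APOD and holds 1 E-box and 1 GC box.
APOD downstream: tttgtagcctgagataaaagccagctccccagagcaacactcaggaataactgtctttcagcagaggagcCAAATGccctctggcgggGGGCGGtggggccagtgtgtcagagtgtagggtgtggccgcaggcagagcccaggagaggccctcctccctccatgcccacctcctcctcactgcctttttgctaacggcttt
The LRP8 window at chr1:53249974-53250174 lies within the gene and holds 1 E-box and 1 SOX motif.
LRP8 intragenic: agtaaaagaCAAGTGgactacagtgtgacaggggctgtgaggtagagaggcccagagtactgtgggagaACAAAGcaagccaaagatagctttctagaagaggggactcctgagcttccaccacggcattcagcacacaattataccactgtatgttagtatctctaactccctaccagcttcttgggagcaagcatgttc
Among all 78238 regions with a peak in every library, 64.0% of such windows hold an E-box, 15.8% a GC box and 22.1% a SOX motif.

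In untreated WM989 cells LRP1 and CLU were higher in primed than in drug-susceptible cells in every well, and APOD, APOC1 and LRP8 were lower in every well. The states were called from the same counts and the wells divide the same cultures, so these contrasts are a description without a test. Pooled over 9688 drug-susceptible and 2843 primed cells, LRP1 stood at 14.8 and 83.8 CPM (5.68-fold higher in primed cells), CLU at 0.534 and 9.29 CPM (17.4-fold higher), APOD at 6.64 and 0.609 CPM (10.9-fold lower), APOC1 at 58.2 and 28.6 CPM (2.04-fold lower) and LRP8 at 20.6 and 11.4 CPM (1.80-fold lower). Of the 6316 genes at 20 CPM or more in either state, 10.4% were over 2-fold higher and 6.55% over 2-fold lower in primed cells. APOE, APOC1, LRP1 and LRP8 were among these genes, with LRP1 past 2-fold upward and APOC1 past it downward (1.85-fold lower in r1 and 2.09-fold lower in r2). APOD, CLU and VLDLR were under that level.

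APOE, the main ligand, went opposite ways in the replicates when cells of all cell cycle phases were summed. In r1 its level in primed cells was 338 to 437 CPM over the 4 wells against 300.5 to 335 CPM in drug-susceptible cells. In r2 it was 49.0 to 84.2 CPM in primed against 107 to 153 CPM in drug-susceptible cells. The primed to drug-susceptible ratio was thus 1.13 in r1 and 0.404 in r2, and the pooled levels of 254 and 214 CPM average 2 replicates that differ also within each state. The share of r1 cells with an APOE UMI was 98.4% of drug-susceptible and 92.4% of primed cells at median depths of 53164.5 and 50467 UMIs. After thinning every cell to 10000 UMIs it was 86.3% and 73.5%, so that the share was lower in primed cells in r1 although the summed level was higher. In r2 the thinned shares were 65.1% and 31.5% (93.1% and 73.1% before thinning, at median depths of 52393.5 and 82315 UMIs).

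APOC1, which lies next to APOE, was lower in primed cells in both replicates, unlike APOE in r1. Its level in drug-susceptible cells was 62.7, 66.0, 74.4 and 67.5 CPM in the r1 wells and 27.4, 23.7, 40.0 and 45.3 CPM in the r2 wells. Primed cells of the same wells had 40.6, 38.4, 28.4 and 31.8 CPM in r1 and 21.0, 17.8, 18.0 and 21.9 CPM in r2. Both states of r1 were thus above the same state of r2, and in each well the primed cells were below the drug-susceptible cells.

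APOD was lower in the primed cells of every well and uneven among drug-susceptible cells. Its level in the latter was 11.4, 13.7, 8.31 and 8.09 CPM in r1 and 2.23, 5.41, 2.42 and 2.69 CPM in r2. The value of 5.41 CPM rested on 1 cell, which held 63 of the 81 UMIs of that well, and was 0.688 CPM without the 5 highest cells. Primed cells of the 8 wells held 1 to 50 APOD UMIs per well, or 0.139 to 1.92 CPM. Among the authors' 11 clusters, APOD was highest in cluster 4 in r1 and r2 (18.0 and 12.3 CPM). CLU, the secreted chaperone, was between 0.230 and 0.716 CPM in the drug-susceptible cells of all wells. In primed cells it was 13.1, 9.10, 3.25 and 4.76 CPM in r1 and 10.2, 10.1, 7.14 and 5.83 CPM in r2, so the ranges of the states did not overlap. In both replicates the CLU level of primed cells was higher in the first and second wells, where most cells were primed, than in the other wells, and the part of the primed share in this was not tested. In r1, 2.62% of drug-susceptible but 30.2% of primed cells held a CLU UMI, and in r2 3.16% and 38.6% did. Thinned to 10000 UMIs, the r1 shares became 0.493% and 7.81% and the r2 shares 0.579% and 8.52%. No cell population that lacks these genes was in the cultures, so the level given by free RNA in droplets was not tested.

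Among the receptors, LRP1 was higher and LRP8 and VLDLR were lower in primed cells. The LRP1 level was 11.1 to 12.8 CPM in drug-susceptible and 52.9 to 90.5 CPM in primed cells of r1, and 18.9 to 19.8 CPM in drug-susceptible and 77.0 to 94.9 CPM in primed cells of r2. In the clusters it was 54.6 to 98.7 CPM in the primed clusters 2, 8 and 9 and 8.50 to 33.5 CPM in the drug-susceptible clusters of either replicate. Of r1 cells, 46.0% of the drug-susceptible and 93.4% of the primed held an LRP1 UMI, and of r2 cells 59.7% and 96.7%, or 11.5% and 52.5% and 18.0% and 55.0% after thinning. LRP8 was 15.8 to 17.6 CPM in drug-susceptible and 7.24 to 9.62 CPM in primed cells of r1, and 21.8 to 27.4 and 14.2 to 15.5 CPM in r2. VLDLR differed less, at 7.54 to 8.78 CPM in drug-susceptible and 4.34 to 7.29 CPM in primed cells of r1 and 9.62 to 11.2 and 8.32 to 9.37 CPM in r2. For both receptors the primed range lay under the drug-susceptible range of its own replicate, and r2 was higher than r1 in each state for LRP8.

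**Figure D1:**
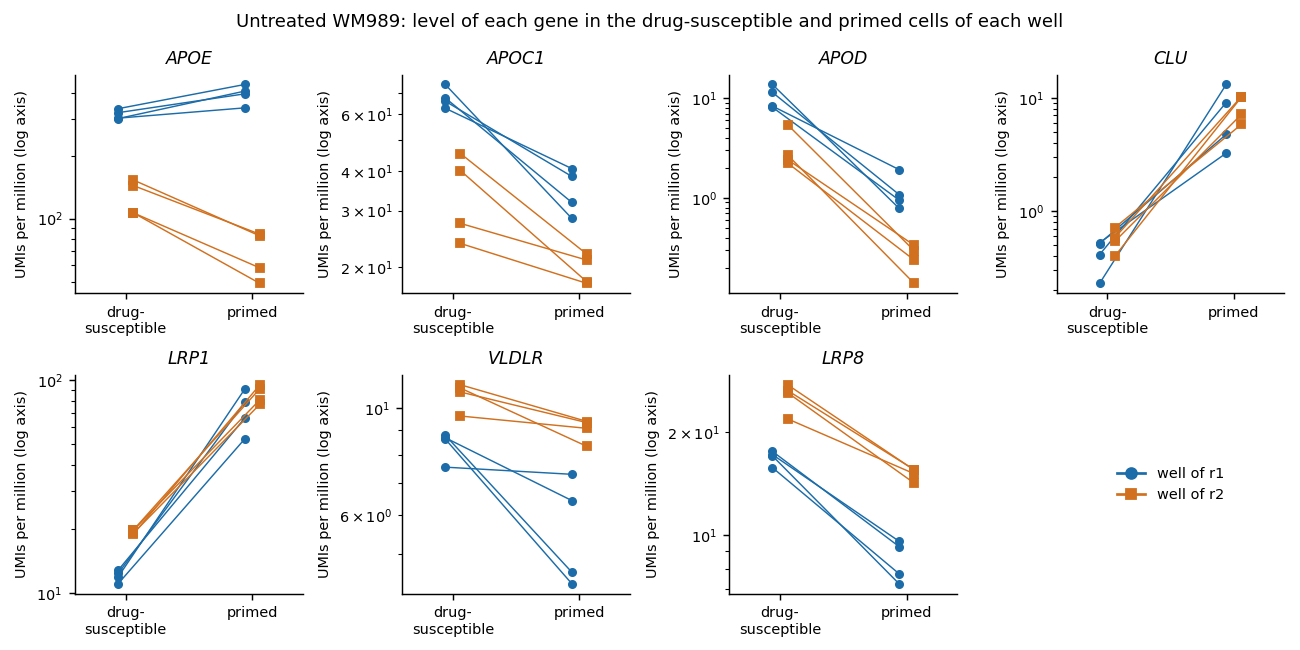
Level of each gene in the drug-susceptible and primed cells of the 8 untreated WM989 wells, in CPM on a log axis, 1 point per well and state (circles r1, squares r2). LRP1 and CLU are higher and APOD is lower in the primed cells of every well, while APOE is higher in the primed cells of r1 (338 to 437 CPM) and lower in those of r2 (49.0 to 84.2 CPM).

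Among the authors' 11 clusters of untreated WM989 the members did not share a single order. APOE ranged from 175 CPM in cluster 3 to 485 CPM in cluster 10 in r1 and from 32.9 CPM in cluster 9 to 209.5 CPM in cluster 4 in r2. Its levels in the primed clusters 2, 8 and 9 were 415, 341 and 231 CPM in r1 and 69.0, 70.1 and 32.9 CPM in r2, so cluster 9 was the lowest primed cluster in both replicates. APOC1 was lowest in the primed clusters, at 33.2 to 40.9 CPM in r1 and 16.4 to 20.6 CPM in r2, against 58.1 to 78.4 CPM and 31.5 to 48.9 CPM in the drug-susceptible clusters. VLDLR, the reelin receptor, was highest in cluster 4 (11.4 and 15.8 CPM), where APOD was highest too, and LRP8 in cluster 0 (19.6 and 33.7 CPM). CLU was at 4.64 to 11.2 CPM in the primed clusters and at 0.23 to 1.39 CPM in the drug-susceptible ones.

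In WM983B, with 1 library, APOE and APOC1 were the members that differed most between the states. APOE was at 130 CPM (95% Poisson interval 127 to 133, counting error only) in 718 drug-susceptible and 42.6 CPM (40.8 to 44.5) in 731 primed cells, 3.05-fold lower. APOC1 was at 60.2 and 23.3 CPM, 2.58-fold lower. Of 6856 genes at 20 CPM or more, 1.30% were over 2-fold higher and 0.686% over 2-fold lower in primed cells, and among the members at that level these 2 passed it downward and none upward. CLU stood at 2.06 CPM (1.69 to 2.48) in drug-susceptible and 4.44 CPM (3.87 to 5.08) in primed cells, 2.16-fold higher, and LRP1 stood at 17.9 CPM (16.8 to 19.0) and 25.1 CPM (23.7 to 26.6). VLDLR (23.0 and 22.7 CPM) and LRP8 (37.8 and 39.9 CPM) were within 1.5-fold.

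APOD in WM983B showed a pattern by cluster rather than by state, at 88.1 CPM in drug-susceptible and 100.2 CPM in primed cells. Cluster 2, with 91 cells, had 352 CPM and an APOD UMI in 91 of 91 cells, and clusters 0, 1 and 3 had 61.8, 92.1 and 62.8 CPM. Without its 5 highest cells cluster 2 was still at 293 CPM. The CLU level of 4.81 CPM in cluster 2 rested on 1 cell with 19 of its 31 UMIs and was 0.820 CPM without the 5 highest cells.

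In the treatment experiment the counts of each library were summed over all cells, over drug-susceptible cells and over primed cells and tested with edgeR's quasi-likelihood test with a term for the replicate, two-sided. Adjusted p-values are Benjamini-Hochberg values over all genes tested, and a change was called at an adjusted p under 0.05. Log2 fold changes are given with their SE, and each treatment has 2 libraries. All 3 treatments share the same Control libraries, so their results are not independent of each other. The methods describe 2 cultures of 1 line, each divided over the 4 treatments. The term for the replicate takes out the difference between these 2 parallel cultures. The p-values thus refer to the spread of libraries that is left, which includes how far a treatment effect differs between the cultures. Because edgeR moderates this spread over all genes, a p-value does not rest on the libraries of its own gene alone. The term for the replicate may also hold a difference in starting population.

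Before the effect of a treatment, the states can be set side by side within each of the 8 libraries, again without a test. LRP1 and CLU were higher and APOE was lower in primed than in drug-susceptible cells of each library. In the Control libraries LRP1 was at 15.3 and 16.5 CPM in drug-susceptible and 55.9 and 61.2 CPM in primed cells, and APOE at 232 and 183 CPM in drug-susceptible and 123 and 92.6 CPM in primed cells. APOD was higher in primed cells in the Control, TGFBRi and PI3Ki libraries (14.5 to 58.7 CPM against 9.78 to 25.6 CPM) and lower in them in both TGFB1 libraries, whereas in untreated WM989 it was lower in the primed cells of each well. Without the 5 highest cells the Control values were 6.32 and 9.14 CPM in primed against 10.8 and 9.24 CPM in drug-susceptible cells, so much of the primed level lay in few cells. These 5 were a larger part of the 94 and 165 primed than of the 4058 and 3527 drug-susceptible cells. Thinned to 5000 UMIs, an APOD UMI was found in 8.60% and 7.41% of Control primed and 5.40% and 4.51% of Control drug-susceptible cells.

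TGFB1 changed all 7 members over all cells, where 29.0% of 18389 genes tested were called (16.3% higher and 12.7% lower). CLU was at 1.33 and 1.496 CPM in the Control libraries (r1 and r2) and 11.6 and 9.69 CPM in the TGFB1 libraries, a log2 fold change of 2.91 ± 0.201 (edgeR adjusted p = 1.29e-10). LRP1 rose from 15.97 and 17.9 CPM to 25.3 and 25.8 CPM, a log2 fold change of 0.58 ± 0.071 (edgeR adjusted p = 1.21e-06). APOD rose from 12.5 and 10.47 CPM to 18.3 and 17.4 CPM, by 0.62 ± 0.090 on the log2 scale (edgeR adjusted p = 1.14e-05). The groups did not overlap for any of the 3 genes.

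The other 4 members fell over all cells with TGFB1. LRP8 was at 23.0 and 22.8 CPM in Control and 15.8 and 17.9 CPM with TGFB1 (log2 fold change -0.46 ± 0.070, edgeR adjusted p = 2.19e-05), and VLDLR at 10.4 and 11.8 against 7.23 and 9.29 CPM (-0.44 ± 0.099, 0.00137). APOC1 was at 66.4 and 58.1 against 52.4 and 49.6 CPM (-0.30 ± 0.072, edgeR adjusted p = 0.00260). APOE was at 230 and 180 against 191 and 163 CPM (-0.22 ± 0.068, edgeR adjusted p = 0.0168), and its groups overlapped across replicates, since r1 was above r2 in every treatment. The APOE call was lost without any 1 of the Control or TGFB1 libraries (adjusted p 0.0597 to 0.275) and without the replicate term (0.349).

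The primed share was 0.647% to 31.3% over the libraries and highest with TGFB1, so the same genes were tested within each state. The drug-susceptible cells compared also came from different clusters. Cluster 3 held 2182 of 3842 and 1619 of 3858 of them with TGFB1, but 56 of 4058 and 59 of 3527 in Control. In drug-susceptible cells, where 14.9% of genes were called (8.56% higher and 6.32% lower), 4 members changed with TGFB1. APOD rose from 12.1 and 9.78 to 22.8 and 20.6 CPM (log2 fold change 0.98 ± 0.089, edgeR adjusted p = 1.94e-08), and CLU from 1.30 and 1.38 to 2.94 and 2.69 CPM (1.06 ± 0.201, 0.00056). VLDLR fell from 10.4 and 11.8 to 7.39 and 9.43 CPM (-0.42 ± 0.098, edgeR adjusted p = 0.00451) and LRP8 from 23.2 and 22.9 to 17.7 and 20.5 CPM (-0.29 ± 0.072, 0.00744). The CLU, VLDLR and LRP8 calls were each lost without TGFB1 r1 (adjusted p 0.107, 0.255 and 0.251), that of VLDLR also without Control r2 (0.0917), and that of LRP8 also without Control r1 (0.1299) and in G1 cells alone (0.0867). APOE, in contrast to all cells, had a log2 fold change of 0.02 ± 0.070 (edgeR adjusted p = 0.893, 231 and 193 CPM against 232 and 183), with a 95% interval of -0.12 to 0.16. LRP1 had 0.18 ± 0.075 (edgeR adjusted p = 0.125) and APOC1 -0.14 ± 0.073 (0.2199).

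In primed cells, where 13.3% of genes were called (6.21% higher and 7.09% lower), CLU and APOD changed with TGFB1 and in opposite directions. CLU had 4 and 13 UMIs in the 94 and 165 primed cells of the Control libraries (2.98 and 5.23 CPM) and 748 and 654 UMIs in the 1577 and 1757 primed cells of the TGFB1 libraries (37.2 and 29.3 CPM), a log2 fold change of 2.96 ± 0.323 (edgeR adjusted p = 2.09e-09). The TGFB1 UMIs were spread over 412 and 397 cells. As for APOD below, the primed cells came from different clusters, mostly cluster 4 with TGFB1 and cluster 10 in Control. A CLU UMI was found in 3.19% and 6.67% of Control and 26.1% and 22.6% of TGFB1 primed cells, or 2.15% and 4.32% against 13.7% and 12.8% after thinning to 5000 UMIs (median depths 12424, 14535, 11098 and 11187 UMIs).

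APOD fell in primed cells from 35.8 and 32.2 CPM to 4.77 and 8.50 CPM with TGFB1, a log2 fold change of -2.25 ± 0.298 (edgeR adjusted p = 1.89e-07), opposite to its rise in drug-susceptible cells. The difference between the effects in the states was -3.17 ± 0.204 (edgeR adjusted p = 2.02e-51), where 9.98% of genes were called. A p-value this small does not rest on the 2 libraries per treatment alone, since edgeR moderates the spread over all genes. Its size is thus no measure of how closely the APOD libraries agreed. The test takes sums per library and does not see how a sum is spread over cells, and few cells carried APOD. The Control values rested on 48 UMIs in 13 of 94 cells and 80 UMIs in 18 of 165 cells, and without the 5 highest cells of each library they were 6.32 and 9.14 CPM against 2.04 and 4.26 CPM with TGFB1. The share of primed cells with an APOD UMI was 13.8% and 10.9% in Control and 2.60% and 4.04% with TGFB1, or 8.60% and 7.41% against 1.08% and 1.54% after thinning. The primed cells also came from different clusters, since 1548 of 1577 and 1706 of 1757 primed cells with TGFB1 were in cluster 4 and those of the other treatments mostly in cluster 10.

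The difference between states also passed the test for CLU (2.02 ± 0.368, edgeR adjusted p = 2.09e-06) and APOE (-0.35 ± 0.116, edgeR adjusted p = 0.0317). APOE in primed cells was at 123 and 92.6 CPM in Control and 73.2 and 78.6 CPM with TGFB1 (-0.40 ± 0.144, edgeR adjusted p = 0.0611), a change called in 5 of 11 alternatives. The APOE difference was lost without Control r1 (adjusted p = 0.235), Control r2 (0.286), PI3Ki r2 (0.0536) or TGFB1 r1 (0.892). LRP1 was high in the primed cells of all libraries (55.9 and 61.2 CPM in Control, 44.9 and 48.4 CPM with TGFB1), and its change there was -0.24 ± 0.147 (edgeR adjusted p = 0.325). The corresponding values of VLDLR and LRP8 were -0.45 ± 0.283 and -0.52 ± 0.265 (adjusted p 0.339 and 0.219).

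**Figure D2:**
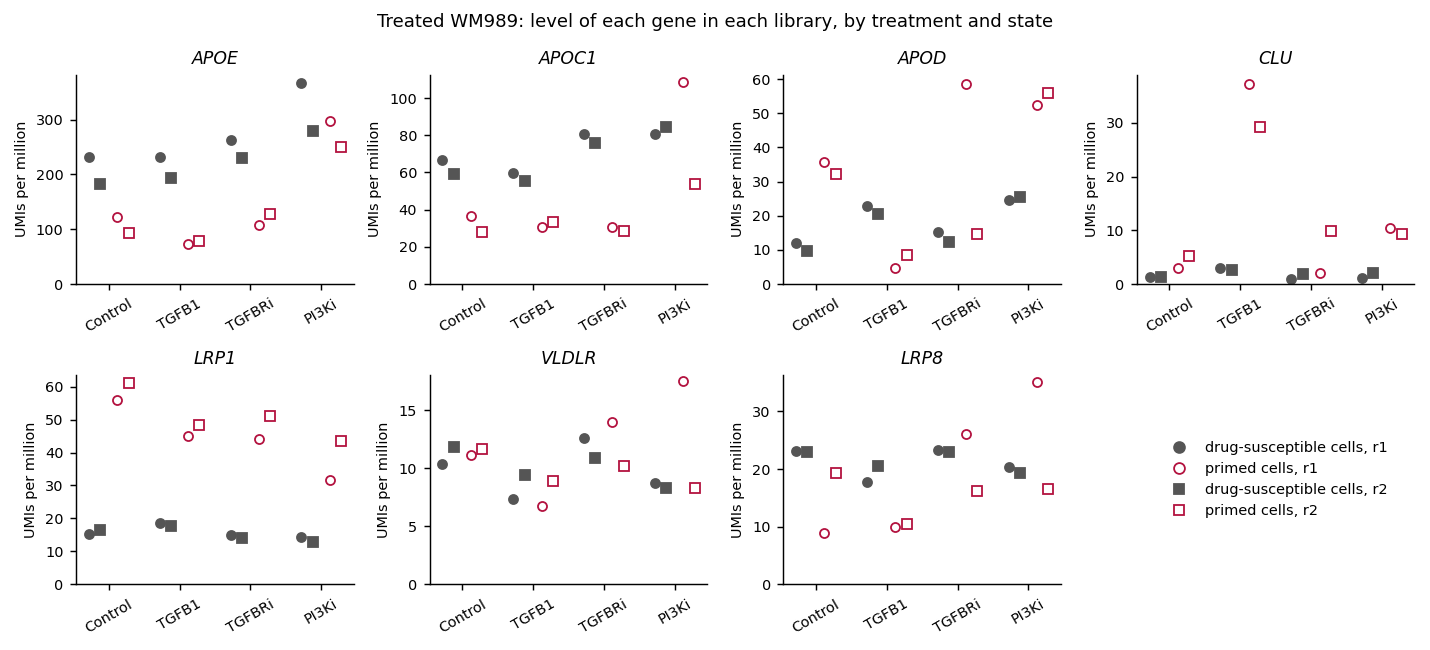
Level of each gene in CPM on a linear axis from 0 in the 8 treatment libraries, with drug-susceptible cells as filled and primed cells as open points, circles for r1 and squares for r2. CLU is highest in primed cells with TGFB1 (37.2 and 29.3 CPM), and APOD in drug-susceptible cells is highest with PI3Ki (24.6 and 25.6 CPM).

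PI3Ki raised the apolipoproteins APOE, APOC1 and APOD and none of the receptors over all cells, where 12.7% of genes were called (5.83% higher and 6.83% lower). APOE was at 367 and 279 CPM with PI3Ki against 230 and 180 CPM in Control, a log2 fold change of 0.75 ± 0.069 (edgeR adjusted p = 1.18e-07). APOD was at 24.7 and 25.8 against 12.5 and 10.47 CPM, a log2 fold change of 1.25 ± 0.089 (edgeR adjusted p = 2.26e-09). APOC1 was at 80.9 and 84.2 against 66.4 and 58.1 CPM, a log2 fold change of 0.51 ± 0.071 (edgeR adjusted p = 3.37e-05). Within each replicate PI3Ki was above Control for all 3 genes, and over the replicates the ranges did not overlap.

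The receptors and CLU had smaller values with PI3Ki that did not pass. LRP1 was at 14.5 and 13.2 CPM (-0.19 ± 0.073, edgeR adjusted p = 0.0891) and VLDLR at 8.78 and 8.28 CPM (-0.29 ± 0.098, 0.0588); LRP1 passed in 2 and VLDLR in 5 of 14 alternatives. LRP8 was at 20.4 and 19.3 CPM (-0.10 ± 0.069, edgeR adjusted p = 0.376), and CLU at 1.15 and 2.08 CPM (0.34 ± 0.246, 0.423). In drug-susceptible cells, where 12.1% of genes were called (5.89% higher and 6.22% lower), APOE, APOC1 and APOD rose as well. The cells compared also came from different clusters. With PI3Ki, cluster 6 held 1104 of 3837 and 1135 of 5709 of them. In Control it held 129 of 4058 and 39 of 3527. APOE was at 367 and 279 against 232 and 183 CPM (0.73 ± 0.070, edgeR adjusted p = 1.38e-07), APOD at 24.6 and 25.6 against 12.1 and 9.78 CPM (1.31 ± 0.087, 3.29e-10) and APOC1 at 80.8 and 84.4 against 66.9 and 59.1 CPM (0.49 ± 0.072, 5.36e-05). The APOD values were 23.3 and 24.8 CPM against 10.8 and 9.24 CPM without the 5 highest cells of each library. VLDLR fell by 0.29 ± 0.094 on the log2 scale (edgeR adjusted p = 0.0456), a call lost in 6 of 14 alternatives.

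An APOE UMI was found in 90.2% and 86.6% of Control and 96.5% and 94.5% of PI3Ki drug-susceptible cells, or 60.5% and 51.9% against 75.8% and 66.4% after thinning to 5000 UMIs (median depths 18526, 21929, 17423 and 20134 UMIs). The shares of APOD were 15.1% and 15.3% in Control and 27.2% and 30.7% with PI3Ki, or 5.399% and 4.51% against 10.0% and 10.8% after thinning. Both genes were thus found in more drug-susceptible cells with PI3Ki at equal depth.

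Primed cells were few with PI3Ki, 25 in r1 and 70 in r2, and 1.78% of genes were called in them (0.467% higher and 1.32% lower). APOE was at 298 and 249.9 CPM against 123 and 92.6 CPM in Control (1.29 ± 0.168, edgeR adjusted p = 2.29e-06), and APOC1 at 109 and 53.9 against 36.5 and 28.2 CPM (1.096 ± 0.252, 0.00981). The PI3Ki APOE values rested on 85 and 241 UMIs, of which 72.9% and 44.4% were in 5 cells. Without the 5 highest cells of each library they were 109.8 and 157 CPM against 87.9 and 75.3 CPM in Control. These 5 were a smaller part of the 94 and 165 Control primed cells, so leaving them out weighs more on the PI3Ki values. APOE rose more in primed than in drug-susceptible cells (difference 0.59 ± 0.144, edgeR adjusted p = 0.00622, where 1.21% of genes were called), a call lost without Control r2 (0.196), PI3Ki r2 (0.753) or TGFB1 r1 (0.0601). The APOC1 call in primed cells was lost without Control r2 (adjusted p = 0.219) or PI3Ki r1 (0.240).

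TGFBRi changed fewer genes, with 2.53% called over all cells (1.09% higher and 1.45% lower). APOE was at 260 and 227 CPM against 230 and 180 CPM in Control (0.27 ± 0.068, edgeR adjusted p = 0.0346) and APOC1 at 79.6 and 74.1 against 66.4 and 58.1 CPM (0.32 ± 0.071, 0.0130). In drug-susceptible cells, where 2.81% were called (1.22% higher and 1.59% lower), APOE (0.27 ± 0.069, edgeR adjusted p = 0.0326), APOC1 (0.33 ± 0.072, 0.0104) and APOD (0.35 ± 0.090, 0.0355) passed. APOD there was at 15.2 and 12.4 against 12.1 and 9.78 CPM. Of 14 alternatives, the APOE call was lost in 9 over all cells and in 7 in drug-susceptible cells, the APOC1 call in 3 and 2, and the APOD call in drug-susceptible cells in 8. Those of APOE and APOC1 were lost in both sets without Control r2 (adjusted p 0.681 and 0.597 for APOE, 0.528 and 0.419 for APOC1). CLU, LRP1, VLDLR and LRP8 had log2 fold changes of -0.13 to 0.14 over all cells, none called.

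In the 118 and 271 primed cells with TGFBRi no member was called and 0.375% of genes were (0.0732% higher and 0.302% lower), by edgeR's quasi-likelihood test, and 0 of the 7 had an unadjusted p under 0.05. For the difference between the states no member was called by edgeR either, 1 had an unadjusted p under 0.05, and 0.551% of genes were called. Over all genes, edgeR called 41 in primed cells, 944 had an unadjusted p under 0.05, and DESeq2 called 17. The TGFBRi primed libraries differed in APOD, at 58.7 CPM in r1 and 14.5 CPM in r2, or 7.01 and 9.81 CPM without the 5 highest cells. Without TGFBRi r1 the APOD change was -1.33 (edgeR adjusted p = 0.0146) and the difference between states -1.38 (0.000307).

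**Figure D3:**
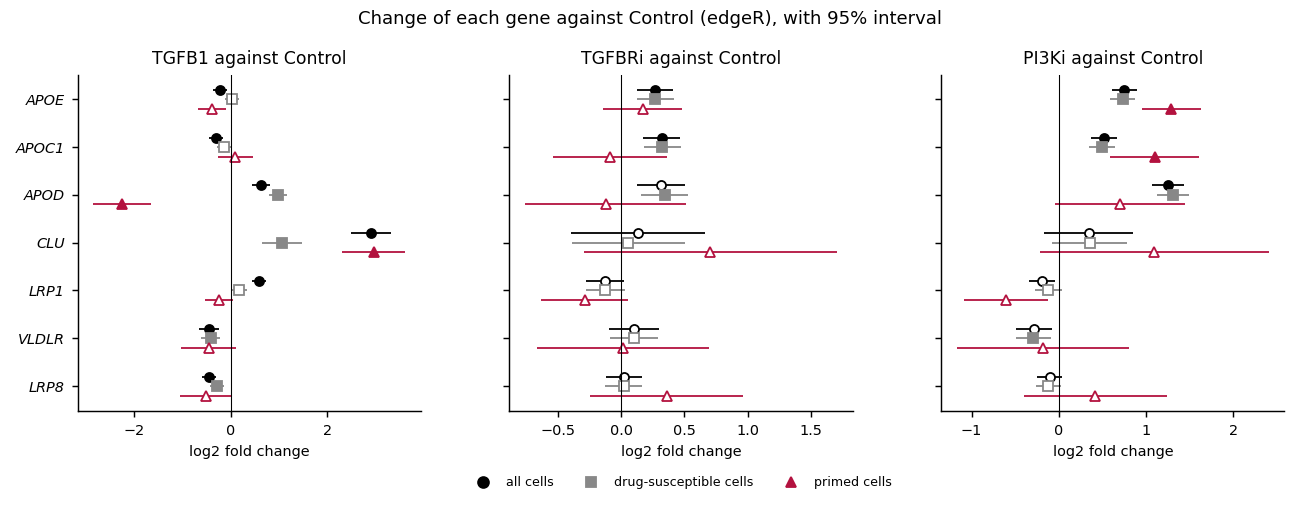
Log2 fold change of each gene against Control for the 3 treatments, over all cells, drug-susceptible cells and primed cells, with 95% intervals from the edgeR fit and filled points where the adjusted p was under 0.05. APOD with TGFB1 is above 0 in drug-susceptible cells (0.98) and below 0 in primed cells (-2.25), and APOE with PI3Ki is above 0 in all 3.

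The cells of the treatment experiment fall into 13 of the authors' clusters, of which 4 and 10 are primed, and several clusters belong nearly to 1 treatment. TGFB1 cells made up 94.9% of cluster 3 and 99.5% of cluster 4, and PI3Ki cells 88.5% of cluster 6 and 80.6% of cluster 11. APOE was highest in cluster 6 (490 and 391 CPM in r1 and r2) and cluster 9 (459 and 302 CPM) and lowest in cluster 4 (68.9 and 72.1 CPM). CLU was at 37.4 and 29.7 CPM in cluster 4 and at 0.65 to 8.04 CPM in the others. LRP1 was at 45.1 and 48.6 CPM in cluster 4 and at 46.7 and 52.8 CPM in cluster 10, followed by the drug-susceptible cluster 3 with 23.4 and 23.8 CPM. The other clusters had 11.98 to 18.0 CPM of LRP1. APOD differed between the primed clusters, at 2.71 and 2.70 CPM in cluster 4 against 57.7 and 44.3 CPM in cluster 10, and was also high in cluster 2 (48.5 and 35.1 CPM).

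Within clusters that held at least 20 cells in every library compared, TGFB1 and Control values were set side by side without a test. APOE with TGFB1 was higher in both replicates in 7 of 9 clusters and lower in both in 1, cluster 3 (0.888 and 0.811 times Control), although its level over all cells was lower. APOD was higher in both replicates in 8 of 9 clusters and lower in none, and VLDLR was lower in 8 and higher in none. LRP1, which rose over all cells, was lower in both replicates in 5 clusters and higher in 1. In the primed cluster 10 APOE was at 306 and 310 CPM with TGFB1 against 130 and 92.5 CPM in Control, APOD at 118 and 213 against 38.6 and 33.5 CPM, and LRP1 at 28.1 and 42.2 against 58.0 and 60.7 CPM. Cluster 10 held 29 and 51 cells with TGFB1 and 89 and 159 in Control. APOD UMIs were in 6 and 21 of these cells with TGFB1 and 13 and 18 in Control. Without the 5 highest cells of each library APOE was at 133 and 207 CPM with TGFB1 against 93.0 and 74.5 CPM in Control. LRP1 was then at 10.5 and 25.0 against 43.9 and 54.7 CPM, and APOD at 3.41 and 63.8 against 6.86 and 9.52 CPM. These 5 were a larger part of the TGFB1 than of the Control cells. They made up most of the 6 cells with an APOD UMI in TGFB1 r1, so the side of Control on which that value lay is not informative.

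With PI3Ki, APOC1 was higher in both replicates in 10 of 10 clusters, APOE and APOD in 8 and lower in none, and LRP1 and VLDLR were lower in 6 and 7 and higher in none. The replicates differed in direction for APOE and APOD in clusters 3 and 6. In cluster 6, which held mostly PI3Ki cells, APOE was 1.07 and 0.985 times Control and APOD 0.855 and 1.24 times. With TGFBRi, APOE was higher in both replicates in 7 of 8 clusters and APOC1 in 6.

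**Figure D4:**
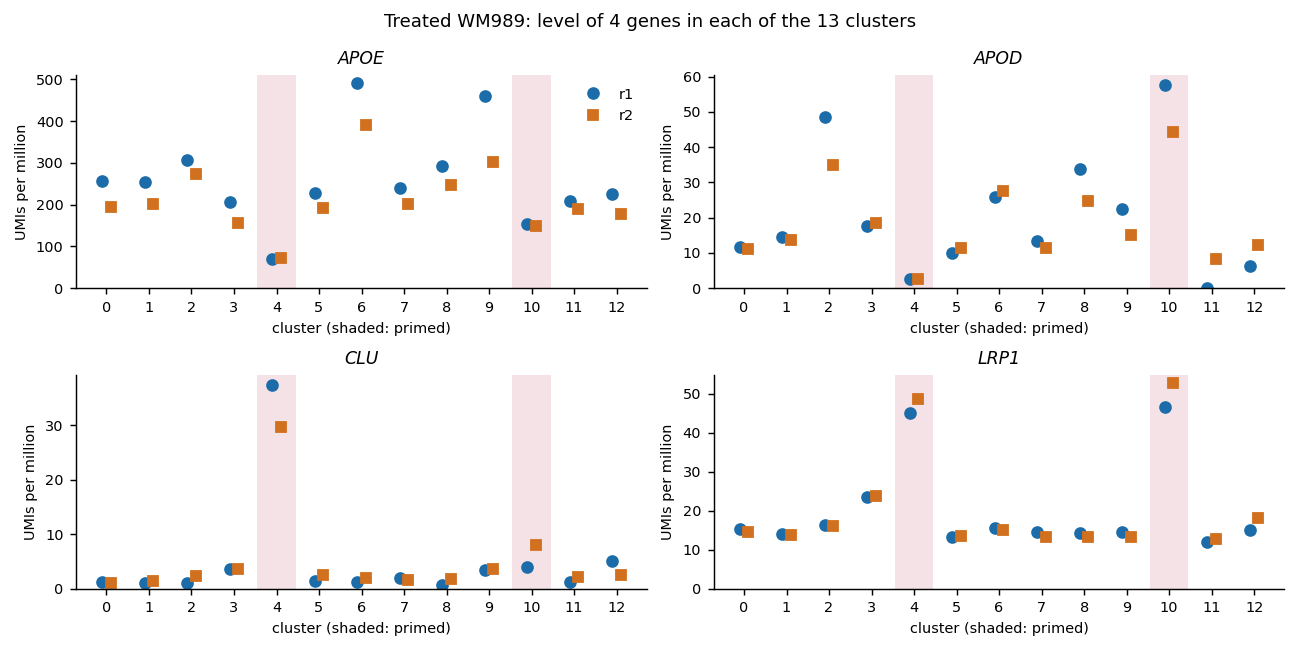
Level of APOE, APOD, CLU and LRP1 in CPM in the 13 clusters of the treatment experiment, with r1 and r2 as separate points and the primed clusters 4 and 10 shaded. CLU is high in cluster 4 (37.4 and 29.7 CPM), APOD in clusters 2 and 10, and LRP1 in both primed clusters.

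The rest of the pathway was described by a list of 60 other genes for apolipoproteins, receptors, receptor chaperones, lipoprotein remodelling, cholesterol efflux and intracellular cholesterol handling. With TGFB1 over all cells 12 of the 38 tested rose and 8 fell, beside 16.3% and 12.7% of all genes, with a median log2 fold change of 0.07 beside 0.01 over all genes. Lipoprotein remodelling had 5 of 9 genes up and 0 down, the LXR and efflux list 3 of 5 up and 0 down, and the other receptors of the LDL receptor family 1 up and 4 down of 8. ANGPTL4, an inhibitor of lipoprotein lipase, rose most, with 6 and 21 UMIs in Control and 244 and 287 with TGFB1. The 12 include CETP (2 and 1 UMIs in Control, 16 and 23 with TGFB1) and APOL3, which passed the filter on low counts only through the TGFB1 libraries and so had to be higher there. Lipoprotein lipase itself, LPL, had 10 and 19 UMIs in Control and 64 and 67 with TGFB1. Among the genes that fell, the receptor LRP4 fell by 0.69 on the log2 scale.

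With PI3Ki 2 of these genes rose, the nuclear receptor RXRA by 0.49 and the cholesterol-binding lysosomal protein NPC2 by 0.32 on the log2 scale, and 4 fell, beside 5.83% and 6.83% of all genes. The fall was largest for ANGPTL4, with 2 and 4 UMIs with PI3Ki. With TGFBRi 0 of them were called by edgeR, and 8 of the 38 had an unadjusted p under 0.05. In drug-susceptible cells 8 rose and 6 fell with TGFB1 of 36 tested (median 0.12), beside 8.56% and 6.32% of all genes. LPL rose by 2.24 on the log2 scale, ANGPTL4 (3 and 8 UMIs in Control, 41 and 34 with TGFB1) passed the filter only through the TGFB1 libraries, and the sorting receptor SORL1 (-0.54) was among those that fell. In primed cells 2 rose (NPC2, and ANGPTL4, which again passed the filter only through the TGFB1 libraries) and 2 fell (NPC1 and LIPA, both of lysosomal cholesterol release) of 24 tested, beside 6.21% and 7.09% of all genes. In untreated WM989 3 of the 17 genes at 20 CPM or more were over 2-fold higher in primed cells pooled over the wells and 4 were over 2-fold lower, beside 10.4% and 6.55% of all genes at that level. Taken by replicate these were 2 and 4 of 15 genes in r1, beside 10.9% and 7.57% of all genes, and 2 and 2 of 18 in r2, beside 9.55% and 6.35%. NPC1 was 6.02-fold higher in r1 and 3.59-fold higher in r2, and LRP10 2.81-fold and 1.98-fold. APOL6 was 3.64-fold higher in r2 and under 20 CPM in r1. The HDL receptor SCARB1 was 4.61-fold lower in r1 and 5.28-fold lower in r2, and the sorting receptor SORT1 2.09-fold and 2.29-fold. In WM983B 0 of 24 passed 2-fold, beside 1.30% higher and 0.686% lower of all genes.

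ATAC-seq signal was compared as the fold enrichment over local background that the authors' peak caller gave each peak, in 78238 regions with a peak in all 12 libraries. Differences were tested with limma on log2 fold enrichment centred on each library's median, with Benjamini-Hochberg adjustment. Of all regions 5.82% were called in EGFR_High, 12.2% in NGFR-High and 12.7% in EGFR-NGFR-High against Mix. Of the 78238 regions, 30 lay in or within 10000 bases of the members, and regions near members that lacked a peak in any library were not tested. Of these 30, 0 were called by limma in EGFR_High, where 5 had an unadjusted p under 0.05. In each of the other sorts 4 were called, 1 higher and 3 lower, or 13.3%. Over all regions 5474 were called higher and 4032 lower in NGFR-High, and 5743 and 4166 in EGFR-NGFR-High.

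The region upstream of LRP1 (chr12:57118505-57119519, at -9471 bases from the start, in an intron of STAT6, whose start is nearer) was the one that was higher. Its fold enrichment was 16.6, 15.6 and 19.4 in Mix, 18.8, 18.0 and 25.5 in EGFR_High, 29.0, 28.4 and 31.5 in NGFR-High and 34.8, 24.6 and 33.2 in EGFR-NGFR-High. The log2 difference from Mix was 0.77 ± 0.175 in NGFR-High (limma adjusted p = 0.0111) and 0.79 ± 0.175 in EGFR-NGFR-High (0.00929). Each NGFR-sorted library was above each Mix library, a separation whose share over all regions is not given here. Both calls held in all alternatives. The start of LRP1 itself was not called (0.37 in NGFR-High, limma adjusted p = 0.114).

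The APOE start (chr19:44905048-44906821, the promoter shown above) was lower in EGFR-NGFR-High. Its fold enrichment was 12.99, 13.2 and 15.5 in Mix, 8.54, 12.3 and 11.3 in EGFR_High, 11.1, 12.7 and 10.3 in NGFR-High and 10.1, 8.51 and 9.43 in EGFR-NGFR-High. The log2 difference of the last was -0.62 ± 0.151 (limma adjusted p = 0.0152), with no overlap with Mix, a separation whose share over all regions is not given here. The call was lost without EGFR-NGFR-High 1 (adjusted p = 0.0604), EGFR-NGFR-High 2 (0.0520) or Mix 3 (0.0585).

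Downstream of APOD, 16943 bases past the start, the region chr3:195566844-195567150 had a fold enrichment of 15.2, 18.4 and 17.4 in Mix, 12.4, 10.4 and 8.32 in EGFR_High, 8.75, 7.87 and 11.3 in NGFR-High and 12.8, 15.1 and 11.4 in EGFR-NGFR-High. It was lower in NGFR-High (log2 difference -0.90 ± 0.199, limma adjusted p = 0.00965). A second region, chr3:195558578-195559004, 25149 bases past the APOD start and nearest to the start of PPP1R2, was lower in NGFR-High (-0.75, limma adjusted p = 0.0431) and in EGFR-NGFR-High (-0.73, 0.0464), calls lost in 8 of 16 alternatives each. The LRP8 region (chr1:53249437-53250500) had 65.4, 76.4 and 64.9 in Mix, 39.8, 38.5 and 52.2 in NGFR-High and 56.5, 51.0 and 42.7 in EGFR-NGFR-High. It was lower in NGFR-High (-0.69, limma adjusted p = 0.0111) and in EGFR-NGFR-High (-0.52, 0.0448), the latter lost in 12 of 17 alternatives. The starts of APOC1, APOD, CLU, VLDLR and LRP8 were not called in any sort.

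**Figure D5:**
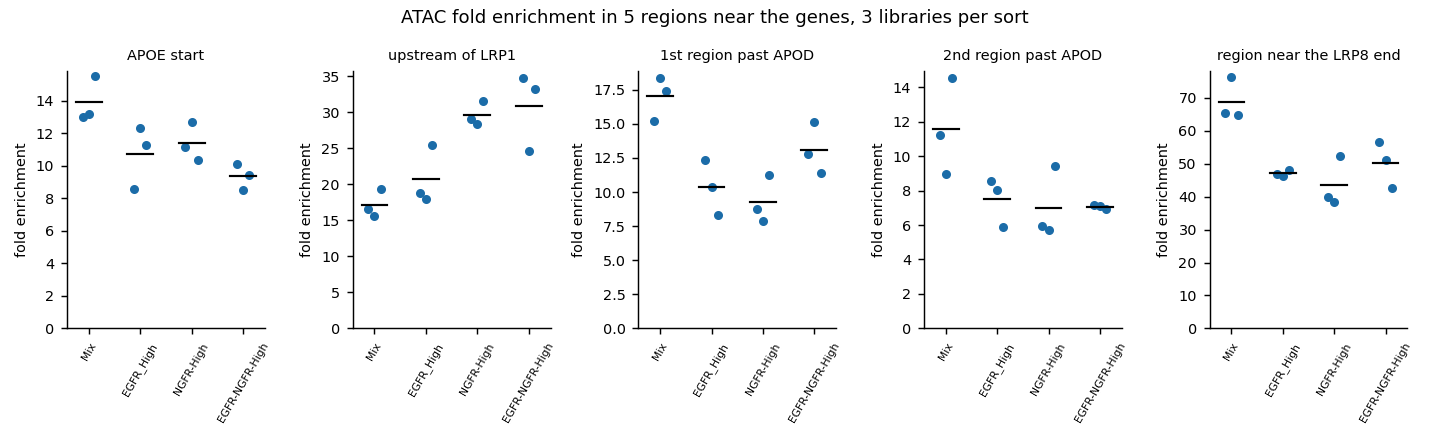
Fold enrichment of 5 regions near APOE, APOD, LRP1 and LRP8 in the 3 libraries of each of 4 sorts, with lines at the means. The region upstream of LRP1 is at 28.4 to 31.5 in NGFR-High and 15.6 to 19.4 in Mix, and the other regions are lower in NGFR-High or EGFR-NGFR-High than in Mix.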

How the data were processed

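Single-cell values are counts of UMIs that the authors deposited for every gene and cell, from Cell Ranger (version not given in the sources used here) on hg38, aggregated with no scaling for depth, after a cell filter in Seurat V3 on gene number and mitochondrial share. The upper limit on gene number was the authors' removal of likely doublets, and no doublet caller was run here. Replicate, well, cluster, state and phase are the authors' labels in the deposited metadata. For ATAC-seq they deposited peaks called per library with MACS2 2.1.1.20160309 after Bowtie2 2.3.4.1 and SAMtools 1.1, in which fold enrichment is a ratio over local background. The −log10 q-values in these deposited lists were computed by the authors with MACS2 2.1.1.20160309 at peak calling, before deposit, and were not tested here. The top 50000 peaks per library were those with the highest fold enrichment, the quantity that limma tested.

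Counts were summed per state, cluster or library. The library sums, filtered by filterByExpr and scaled by TMM, entered edgeR's quasi-likelihood test (version 4.0.16 on R 4.3.3) with terms for treatment and replicate. Primed cells were tested in libraries with at least 20. The difference between states was tested as an interaction, with library as a block. The SE is the log2 fold change over the square root of F, with edgeR's default prior count. The replicate term was kept because the methods split each replicate's cells over the 4 plates, and samples of 1 number deviated together (r = 0.246 to 0.366 over 6 pairs). The sample labels name the replicates Mix and Primed and the cell labels r1 and r2, and which is which is not given. In ATAC-seq, libraries of 1 number had r = -0.000192 to 0.175 over 18 pairs, and those of different numbers -0.157 to 0.0405 over 36 pairs. Libraries of 1 number thus tended to deviate together, weakly and with overlapping ranges, and the main fit with limma 3.58.1 had no block. Procedures were tested on simulated data. DESeq2 1.42.0, other scalings and filters and left-out libraries were alternatives. Poisson intervals cover counting error only. Thinning drew 10000 UMIs per cell in the untreated WM989 and 5000 in the treatment experiment. Merged regions counted where all 12 libraries had a peak. Python 3.11.15, numpy 2.4.6, pandas 2.3.3, scipy 1.17.1 and matplotlib 3.10.9 were used.

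The members and gene lists were chosen with earlier results of these data known. Named genes are the 7 members and, of the pathway list, the 2 largest rises and falls past the threshold per comparison. Further pathway genes were named after their values were seen, and 1 gene counted in that list is not reported here. APOD and CLU had no promoter entry.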

Additional observations from a re-analysis of the deposited data

Results flagged for a closer look

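The effect of TGFB1 differed between primed and drug-susceptible cells for 3 members by the interaction test of edgeR. The difference in log2 fold change was -3.17 for APOD, which rose in drug-susceptible and fell in primed cells, 2.02 for CLU and -0.35 for APOE. The APOD and CLU differences kept their call without each library in turn, and the APOE difference did not. The primed cells of the groups lay in different clusters, mostly cluster 4 with TGFB1 and cluster 10 in Control. CLU in cluster 10 was at 8.42 and 6.50 CPM with TGFB1 (3 and 4 UMIs) against 3.22 and 5.44 CPM in Control (4 and 13 UMIs). Within cluster 10 the APOD level was not lower but 118 and 213 CPM with TGFB1 against 38.6 and 33.5 CPM in Control, or 3.41 and 63.8 against 6.86 and 9.52 CPM without the 5 highest cells of each library. The 5 left out were most of the 6 cells with an APOD UMI in TGFB1 r1. For PI3Ki the difference of APOE was 0.59, which rested on 25 and 70 primed cells and was lost in 4 of 9 alternatives. Without the 5 highest primed cells of each library, APOE in r1 was at 109.8 CPM with PI3Ki against 87.9 CPM in Control in primed cells, a smaller ratio than the 367 against 232 CPM in all drug-susceptible cells. In r2, by the values given above, the ratio was larger in primed than in drug-susceptible cells. The drug-susceptible sums kept their highest cells, and the 5 left out were a larger part of the primed cells with PI3Ki than in Control.

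In the untreated WM989 wells, APOE was higher in primed cells in every well of r1 and lower in every well of r2, with ratios of 1.13 and 0.404, and this difference was not tested. Split by phase, the r1 levels of primed and drug-susceptible cells were 407 and 397 CPM in G1, 310 and 310 in S and 195 and 273 in G2M. Chance flags about 1 in 20 groups of 4 independent wells, but here the wells of a replicate divide the same cultures, so that rate is only a guide. Among 28 groups of 4 wells, 2 held a value far from the other 3. They were the highest APOD level in drug-susceptible cells of r2 (5.41 CPM, with the next at 2.69 CPM) and the lowest VLDLR level in drug-susceptible cells of r1 (7.54 CPM, with the next at 8.62 CPM). The APOD value had 63 of its 81 UMIs in 1 cell.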

How the results depend on the processing

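Without the replicate block, which paired libraries of 1 number, the genes called for TGFB1, TGFBRi and PI3Ki were 3599, 40 and 649 over all cells (5324, 466 and 2328 with it), 1189, 47 and 570 in drug-susceptible cells (2665, 503 and 2170), and 9 and 87 in primed cells for TGFBRi and PI3Ki (41 and 195). For the difference between states they were 775, 4 and 7 (1847, 102 and 224). Of the members, APOE with TGFB1 over all cells (adjusted p = 0.349), CLU in drug-susceptible cells with TGFB1 (0.0528) and APOC1 in primed cells with PI3Ki (0.0517) lost their call without the block, as did APOC1 over all cells with TGFBRi (0.297) and the APOE differences between states (0.496 with TGFB1, 0.676 with PI3Ki). In ATAC-seq, where the main fit had no block, a replicate block brought the CLU start in NGFR-High past the threshold (-0.53, limma adjusted p = 0.0451).

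Over all cells TGFBRi called 748 genes with no filter on low counts and 148 in G1 cells alone, and in drug-susceptible cells 210 in G1 cells. DESeq2 called 1750, 317 and 1423 genes in drug-susceptible cells, 606 with TGFB1 in primed cells (1454 by edgeR) and 17 with TGFBRi. With the top 50000 peaks per library 2571, 3702 and 3806 regions were called in EGFR_High, NGFR-High and EGFR-NGFR-High (4550, 9506 and 9909 otherwise), and fewer regions were tested.

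Leaving out 1 library at a time gave 3164 to 6377 calls for TGFB1, 168 to 1146 for TGFBRi and 719 to 3298 for PI3Ki over all cells, and 988 to 3722, 206 to 1247 and 632 to 3286 in drug-susceptible cells. In primed cells the ranges were 584 to 1726, 17 to 63 and 96 to 239, and for the difference between states 825 to 2126, 49 to 111 and 129 to 257, where these leave-outs were chosen after seeing the data. In ATAC-seq they were 1704 to 4609, 4499 to 9594 and 5588 to 10080. The lone library then left in an arm is assumed to vary like the others.

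Calls that held in every alternative were APOE, APOC1 and APOD with PI3Ki over all and in drug-susceptible cells, APOE with PI3Ki in primed cells, APOD, CLU, LRP1 and LRP8 with TGFB1 over all cells, APOD in drug-susceptible cells, and APOD and CLU in primed cells and in the difference between states. APOC1 and VLDLR with TGFB1 over all cells were lost without Control r1 (0.138) and TGFB1 r1 (0.118). Changes that passed under an alternative but not otherwise included, with PI3Ki over all cells, VLDLR in 5 of 14 (adjusted p 0.00978 to 0.0496) and LRP1 in 2 (0.0374 and 0.0395), with TGFB1 in primed cells APOE in 5 of 11 (0.0269 to 0.0419) and LRP8 in 1 (0.0462), with TGFBRi over all cells APOD in 2 (0.00523 and 0.0101), and with TGFB1 in drug-susceptible cells LRP1 (0.33, adjusted p = 0.0312) and APOC1 (-0.27, 0.0248) in G1 cells alone. Few primed cells and few UMIs of APOD and CLU limit the primed values. The causes of these changes were not tested.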

Other observations

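Cell cycle phase, as the authors labelled it, went with the levels of APOE and LRP8 within drug-susceptible cells. In r1 of untreated WM989, APOE was at 397 CPM in G1, 310 CPM in S and 273 CPM in G2M cells, and LRP8 at 12.1, 20.8 and 15.5 CPM. The treatment experiment had APOE at 288, 240 and 220 CPM and LRP8 at 17.9, 25.6 and 19.9 CPM in G1, S and G2M. In WM983B APOE was at 184, 103 and 119 CPM and LRP8 at 35.9, 49.5 and 30.6 CPM. APOE was thus highest in G1 and LRP8 highest in S in each of the 3 experiments, and these are values over cells without a test.

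The genes most like each member were ranked by the mean of the correlations of log levels over the 11 clusters of untreated WM989 and the 13 clusters of the treatment experiment, among 7393 genes. These points share libraries and depth, and the ranking is a description. For LRP1 the nearest were CAV1, ITGA2 and F2R, and for CLU they were SPOCK1, FKBP1A and CAV2. For APOE they were RENBP, CPQ and C10orf90, for APOC1 KIAA0930, DLL3 and SEC11C, and for APOD PPP1R9A, FGFBP2 and A2M. VLDLR was nearest to MYCBP2, MPDZ and ARHGAP31, and LRP8 to KDM2B, SLC35B4 and ELOVL2.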
